A study of Arabidopsis thaliana with 4 samples.

Results

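The genes described here are 10 genes of copper deficiency and superoxide dismutation, of 33854 genes in the deposited tables. They are the transcription factor genes *SPL7* (AT5G18830) and *CITF1* (AT1G71200), the copper transporter genes *COPT1* (AT5G59030) and *COPT2* (AT3G46900), the metal reductase genes *FRO4* (AT5G23980) and *FRO5* (AT5G23990), the superoxide dismutase genes *FSD1* (AT4G25100), *CSD1* (AT1G08830) and *CSD2* (AT2G28190), and the copper chaperone gene *CCS* (AT1G12520). They were chosen by name for these roles, with the levels in these 4 libraries already known and with no threshold, so their differences between the genotypes are a description and carry no test.

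Poly-A RNA of whole 12-day-old Arabidopsis seedlings, raised on Murashige and Skoog medium in long days (16 h of light, 22 °C), was sequenced in 2 libraries of *35S-COLDAIR* and 2 libraries of Col-0, numbered as replicates 1 and 2. Col-0 is the wild type. The *35S-COLDAIR* seedlings are of 1 transgenic line in the Col-0 background, in which the constitutive *CaMV 35S* promoter drives *COLDAIR*, a noncoding RNA from the first intron of the flowering repressor gene *FLC*. The study made the libraries to compare the expression of genes, flowering genes above all, between this line and the wild type. Neither the labels nor the methods say whether the libraries of 1 genotype came from separately grown seedlings, so the spread between them may be technical.

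The levels are FPKM, fragments scaled to the length of the transcript and to the mapped fragments of the library, as the authors deposited them. FPKM summed to between 928299 and 951940 in the 4 libraries, and between 22411 and 22623 genes had a level above 0. The steps of the low values gave depths, relative to Col-0 replicate 1, of 1.09 and 1.19 for *35S-COLDAIR* replicates 1 and 2 and of 1.05 for Col-0 replicate 2. The libraries of the same replicate number stand in 1 table, and no source says whether both tables were normalized together, so differences within each table are given beside those over all 4 libraries. *FLC* itself was at 43.4 and 37.6 FPKM in *35S-COLDAIR* and at 2.05 and 1.13 FPKM in Col-0 (log2 difference 4.02, adjusted p = 0.0835 from limma), a row that does not measure the intronic *COLDAIR* RNA on its own.

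Plants use copper in plastocyanin, cytochrome c oxidase and the copper/zinc superoxide dismutases. When copper runs short, the transcription factor SPL7 binds GTAC cores and turns on genes for copper uptake, for an iron superoxide dismutase that needs no copper, and for a group of microRNAs. One of these, miR398, cuts the mRNAs of the copper/zinc dismutases and of their chaperone, so that *FSD1* and the *CSD* genes are known to be used in exchange of each other according to copper supply.

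The sequences that link these genes are the miR398 microRNAs and their sites, shown here as read from RefSeq (TAIR10.1) by gene, with the seed of the microRNA (bases 2 to 8) in capitals. *MIR398b* and *MIR398c* encode the same mature RNA, and *MIR398a* the same seed.
miR398a-3p: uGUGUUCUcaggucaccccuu
miR398b-3p and miR398c-3p: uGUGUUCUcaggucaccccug

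A site was sought in every RefSeq transcript of the 10 genes as the stretch with the lowest cost against miR398b-3p, where a mismatch cost 1, a G:U pair 0.5 and 1 unpaired base, at most, 1. Bases in capitals form Watson-Crick pairs with the microRNA. The *CSD1* site lies before the coding sequence and crosses an exon junction of 1 of its 2 transcripts (chr1:2827177-2827685, plus strand), and the *CSD2* site (chr2:12015572-12015591, plus strand) and the *CCS* site (chr1:4267521-4267542, minus strand) lie in coding exons. The site of *COX5b-1* (AT3G15640, chr3:5299204-5299225, plus strand), which encodes a subunit of cytochrome c oxidase, is shown beside them as that of a known miR398 target outside the 10 genes. It lies before the coding sequence.
*CSD1* mRNA: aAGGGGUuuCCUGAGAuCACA
*CSD2* mRNA: ugcGGGUGACCUGgGAAACA
*CCS* mRNA: CAuuGGGaGACCUGgGAACACu
*COX5b-1* mRNA: aAGGuGUGACCUGAGAAuCACA

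The cost was 4.0 for *CSD1*, 3.5 for *CSD2*, 4.5 for *CCS* and 3.0 for *COX5b-1*. Among 27562 protein-coding genes, taken by their longest transcript, 0.141% had a site at a cost of 4.0 or less, 0.0363% at 3.5 or less, 0.493% at 4.5 or less and 0.0109% at 3.0 or less. The best stretches of the other 7 genes cost 6.0 to 7.5, and 16.3% of all genes had one at 6.0 or less. A match of letters is a description and no evidence that the site was cut in these seedlings.

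The GTAC core, a palindrome that reads the same on both strands, was counted from 250 bases before to 50 bases after the annotated start of each gene. It was present in 4 of the 10 genes, *FSD1*, *COPT2*, *CCS* and *CSD1*, beside 39.0% of 27443 protein-coding promoters of the same length. *CSD1* held 2 cores, and 9.76% of promoters held at least 2. Of the 7 copper microRNA genes, counted from the start of the annotated hairpin, 5 held at least 3. *MIR398b* had 5 cores, *MIR397b* and *MIR408* had 4 each, and *MIR398c* and *MIR397a* had 3 each, whereas *MIR398a* and *MIR857* had 0 in this window. Of protein-coding promoters, 1.99% held at least 3 cores and 0.397% at least 4. The windows of *MIR398c* (chr5:4694444-4694743, plus strand), the one *MIR398* gene listed above 0 in these libraries, and of *FSD1* (chr4:12886962-12887261, minus strand), the member with the widest range of log2(FPKM + 1), are shown with the GTAC cores in capitals.
*MIR398c*: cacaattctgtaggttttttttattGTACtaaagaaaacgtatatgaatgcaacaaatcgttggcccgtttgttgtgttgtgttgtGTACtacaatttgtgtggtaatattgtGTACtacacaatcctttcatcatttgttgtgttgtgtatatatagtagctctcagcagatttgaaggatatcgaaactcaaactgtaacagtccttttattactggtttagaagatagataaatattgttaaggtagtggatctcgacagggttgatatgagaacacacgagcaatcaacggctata
*FSD1*: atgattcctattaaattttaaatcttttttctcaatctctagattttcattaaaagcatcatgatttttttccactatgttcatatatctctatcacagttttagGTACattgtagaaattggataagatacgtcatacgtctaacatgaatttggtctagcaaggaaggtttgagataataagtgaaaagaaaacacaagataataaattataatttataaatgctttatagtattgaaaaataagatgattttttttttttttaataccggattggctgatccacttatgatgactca

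*FSD1* was higher in both *35S-COLDAIR* libraries, and *CSD1*, *CSD2* and *CCS* were lower in both. *FSD1*, on chromosome 4 from 12884300 to 12887011, encodes an iron superoxide dismutase. Its level was 550.5 and 519 FPKM in *35S-COLDAIR* (replicate 1, then replicate 2, here and for the genes that follow), and 82.9 and 350.1 FPKM in Col-0. Both *35S-COLDAIR* libraries were above both Col-0 libraries, and the Col-0 libraries were far from each other. The means were 535 ± 22.0 FPKM in *35S-COLDAIR* and 216 ± 189 FPKM in Col-0 (SD, n = 2 each), a ratio of 2.47. The log2 difference in log2(FPKM + 1), *35S-COLDAIR* minus Col-0, was 1.64 (standard error 0.693), with 2.72 within replicate 1 and 0.57 within replicate 2. In RNA of whole seedlings, fewer cells of a type and less RNA per cell cannot be told apart, for this and the other genes.

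*CSD1* and *CSD2*, the cytosolic and the chloroplastic copper/zinc superoxide dismutase genes, went the other way. *CSD1*, on chromosome 1 from 2827060 to 2829315, was at 169 and 165 FPKM in *35S-COLDAIR*, and at 486 and 262 FPKM in Col-0. *CSD2*, on chromosome 2 from 12014412 to 12016569, was at 232 and 249 FPKM in *35S-COLDAIR*, and at 764 and 395 FPKM in Col-0. For both genes the *35S-COLDAIR* libraries lay close together and below both Col-0 libraries, and Col-0 replicate 1 was the highest. The ratio of means was 0.447 for *CSD1* and 0.415 for *CSD2*. The log2 difference was -1.09 (standard error 0.304) for *CSD1*, with -1.52 within replicate 1 and -0.66 within replicate 2. It was -1.19 (standard error 0.325) for *CSD2*, with -1.71 within replicate 1 and -0.67 within replicate 2. *CSD1* overlaps AT1G08840 on the opposite strand by 211 bases, and no source states a strand setting. AT1G08840 was at 2.88 and 2.21 FPKM in *35S-COLDAIR* and at 2.66 and 2.34 FPKM in Col-0, well under the level of *CSD1*.

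*CCS*, whose protein loads copper into CSD1 and CSD2, followed the *CSD* genes. This gene, on chromosome 1 from 4267074 to 4268982, was at 60.1 and 64.4 FPKM in *35S-COLDAIR*, and at 164 and 89.7 FPKM in Col-0. Again Col-0 replicate 1 stood highest and the genotypes did not overlap. The ratio of means was 0.491, and the log2 difference was -0.95 (standard error 0.297), with -1.43 within replicate 1 and -0.47 within replicate 2. The level of *CCS* was 0.15 and 0.156 times the sum of *CSD1* and *CSD2* in *35S-COLDAIR*, and 0.131 and 0.137 times that sum in Col-0. The level of *CSD2* was 1.37 and 1.51 times that of *CSD1* in *35S-COLDAIR*, and 1.57 and 1.51 times in Col-0. The 3 genes thus kept similar proportions among themselves while their levels differed between libraries.

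**Figure D1:**
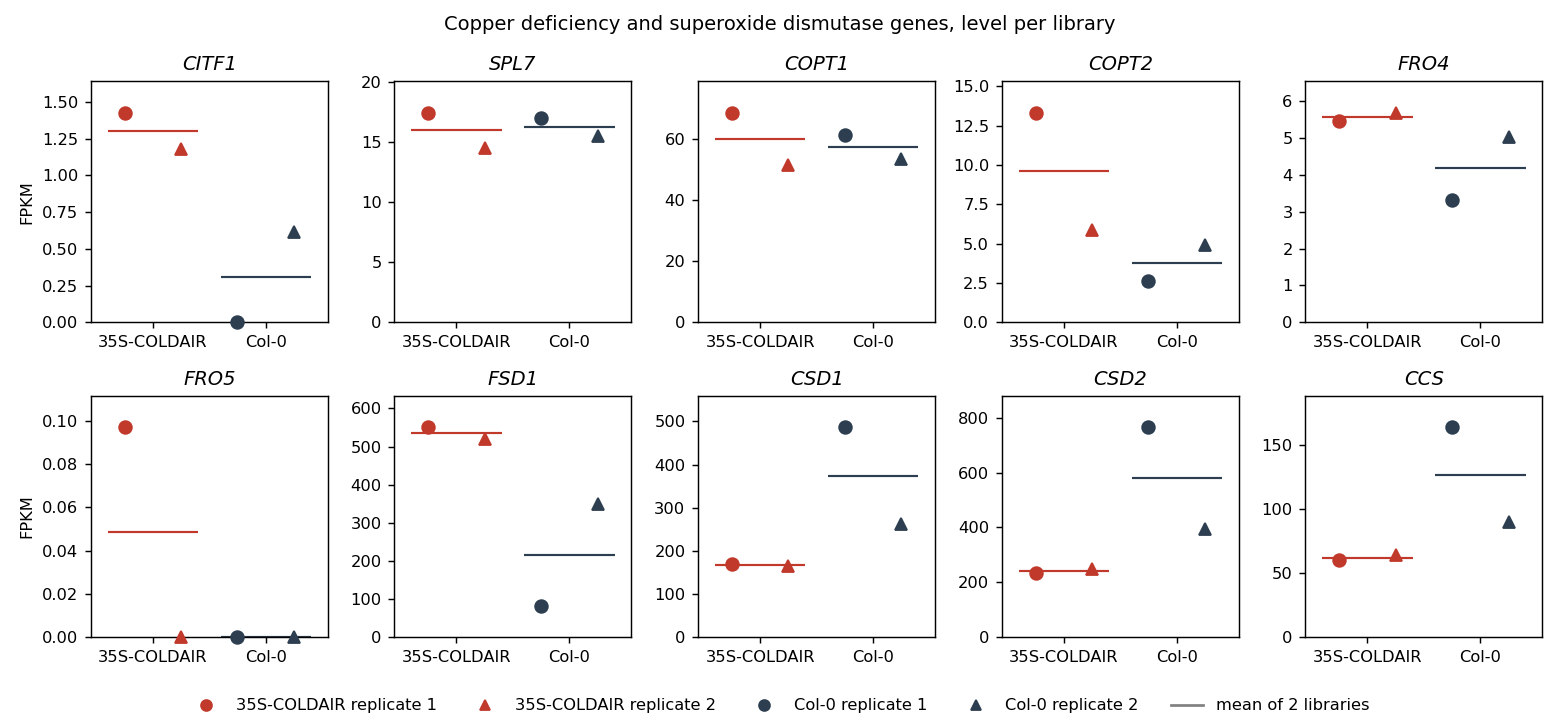
Level in FPKM (linear axis from 0) of the 10 genes in the 4 libraries, *35S-COLDAIR* in red on the left and Col-0 in dark blue on the right of each panel, with circles for replicate 1, triangles for replicate 2 and a line at the mean of the 2 libraries. *FSD1* was at 550.5 and 519 FPKM in *35S-COLDAIR* against 82.9 and 350.1 FPKM in Col-0, and *CSD1*, *CSD2* and *CCS* show the opposite order, with Col-0 replicate 1 farthest from the *35S-COLDAIR* libraries.

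Because FPKM is per length, the levels of the dismutase genes can be set side by side within a library. *FSD1* was 1.37 and 1.26 times the sum of *CSD1* and *CSD2* in *35S-COLDAIR*, and 0.0663 and 0.533 times that sum in Col-0. *FSD1* was thus the more abundant side in both *35S-COLDAIR* libraries and the less abundant side in both Col-0 libraries. Of the summed FPKM of all 8 superoxide dismutase genes, *FSD1* made up 43.9% and 41.6% in *35S-COLDAIR*, and 5.05% and 26.6% in Col-0. *CSD1* and *CSD2* together made up 32.0% and 33.1% in *35S-COLDAIR*, and 76.2% and 49.9% in Col-0. The whole sum was 1255 and 1249 FPKM in *35S-COLDAIR*, and 1642 and 1317 FPKM in Col-0. In the stacked plot of dismutase transcripts, the parts of *FSD1*, *CSD1* and *CSD2* differ between the libraries, while the grey part of the remaining genes is of even height.

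**Figure D2:**
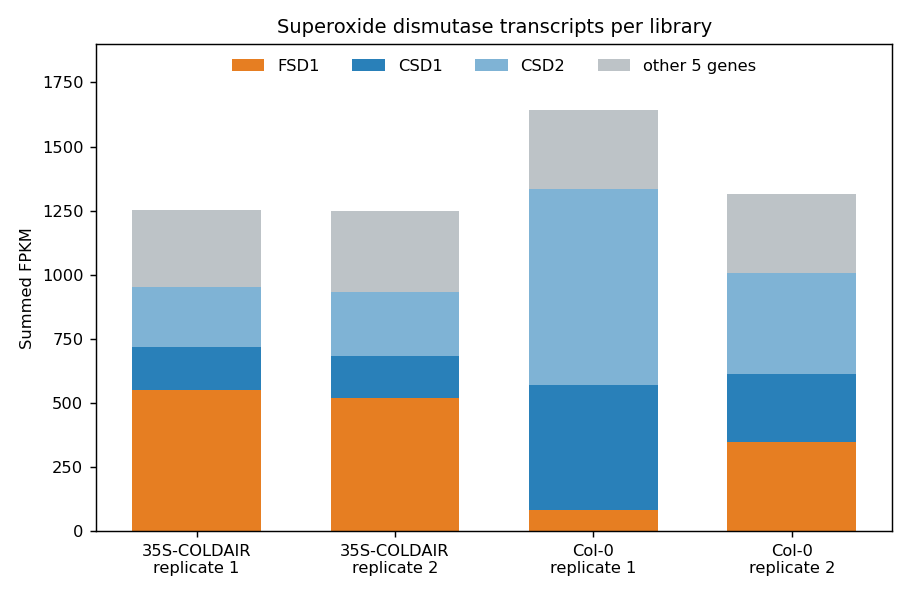
Summed FPKM (axis from 0) of the superoxide dismutase genes in each library, stacked as *FSD1* (orange), *CSD1* (dark blue), *CSD2* (light blue) and the other 5 genes together (grey). *FSD1* makes up 43.9% and 41.6% of the sum in *35S-COLDAIR* and 5.05% and 26.6% in Col-0.

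The other 5 dismutase genes, which were on a list for comparison and are no members, summed to 303 and 316 FPKM in *35S-COLDAIR* and to 308 and 310 FPKM in Col-0. *MSD1* (AT3G10920), for the manganese enzyme of mitochondria, was at 179 FPKM in both *35S-COLDAIR* libraries and at 172 and 176 FPKM in Col-0. *CSD3* (AT5G18100), for the peroxisomal copper/zinc enzyme, was at 53.3 and 61.2 FPKM in *35S-COLDAIR* and at 58.7 and 64.8 FPKM in Col-0. *FSD2* (AT5G51100) and *FSD3* (AT5G23310) encode iron enzymes of the chloroplast. *FSD2* was at 28.4 and 31.9 FPKM in *35S-COLDAIR* and at 31.7 and 28.2 FPKM in Col-0. *FSD3* was at 41.8 and 43.4 FPKM in *35S-COLDAIR* and at 45.5 and 41.2 FPKM in Col-0. *MSD2* (AT3G56350) was at or below 0.140 FPKM in all libraries. The log2 differences of the 4 tested genes, all but *MSD2*, were between -0.11 and 0.04, and 0 of them passed an adjusted p of 0.05 in limma or had an unadjusted p under 0.05.

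Of the regulators, *CITF1* was higher in both *35S-COLDAIR* libraries, and *SPL7* overlapped between the genotypes. *CITF1* encodes a basic helix-loop-helix factor needed for copper uptake, and lies on chromosome 1 from 26835200 to 26837991. It was at 1.43 and 1.18 FPKM in *35S-COLDAIR*, and at 0.617 FPKM in Col-0 replicate 2, and was listed at 0 in Col-0 replicate 1. The genotypes did not overlap, but all values were low, the number of fragments behind them is unknown, and an exact 0 in such tables can be a failed estimate. The log2 difference was 0.85 (standard error 0.284), with 1.28 within replicate 1 and 0.43 within replicate 2. On the log2(FPKM + 1) scale such low values are pulled together, and with a pseudocount of 0.1 FPKM the difference was 2.38.

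*SPL7*, the gene of the copper-sensing activator itself, on chromosome 5 from 6275895 to 6280681, was at 17.4 and 14.5 FPKM in *35S-COLDAIR* and at 17.0 and 15.5 FPKM in Col-0. The genotypes overlapped, and the log2 difference was -0.03 (standard error 0.125), with 0.03 within replicate 1 and -0.09 within replicate 2. Its mRNA level thus differed between the genotypes by less than between the replicates of either.

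Of the copper transporters, *COPT2* was higher in both *35S-COLDAIR* libraries. *COPT1*, which encodes a high-affinity importer of the root, overlapped between the genotypes. *COPT2*, on chromosome 3 from 17268700 to 17269510, was at 13.3 and 5.87 FPKM in *35S-COLDAIR*, and at 2.65 and 4.94 FPKM in Col-0. The genotypes did not overlap, but *35S-COLDAIR* replicate 2 was close to Col-0 replicate 2. The means were 9.60 ± 5.28 FPKM in *35S-COLDAIR* and 3.80 ± 1.62 FPKM in Col-0 (SD, n = 2 each), a ratio of 2.53. The log2 difference was 1.09 (standard error 0.437), with 1.97 within replicate 1 and 0.21 within replicate 2.

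*COPT1*, on chromosome 5 from 23833493 to 23834745, was at 68.7 and 51.5 FPKM in *35S-COLDAIR* and at 61.3 and 53.5 FPKM in Col-0. Its genotypes overlapped, and its log2 difference was 0.06 (standard error 0.166), with 0.16 within replicate 1 and -0.05 within replicate 2. Neither transcript shares a stretch of 50 bases with another gene.

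*FRO4* and *FRO5* encode root surface reductases that reduce copper before uptake, and lie in tandem on chromosome 5, from 8097978 to 8101330 and from 8105461 to 8108642. Of the 50-base words of their longest transcripts, 5.11% of those of *FRO4* occur in *FRO5* and 5.30% of those of *FRO5* in *FRO4*, so reads there could be counted for either gene. *FRO4* was at 5.45 and 5.69 FPKM in *35S-COLDAIR*, and at 3.32 and 5.03 FPKM in Col-0. The genotypes did not overlap, although *35S-COLDAIR* replicate 1 lay only just above Col-0 replicate 2. The log2 difference was 0.36 (standard error 0.194), with 0.58 within replicate 1 and 0.15 within replicate 2. *FRO5* was at 0.0969 FPKM in *35S-COLDAIR* replicate 1 and listed at 0 in the other libraries, so it was under the filter and no comparison was made.

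Of the 10 genes, 9 reached a mean of 0.5 FPKM and entered the fit across all genes, *FRO5* being the exception. In limma with Benjamini-Hochberg adjustment, 0 of the 9 passed an adjusted p of 0.05, beside 0.00993% of all 20142 tested genes, and 4 of the 9 had an unadjusted p under 0.05, beside 2.59% of all. In 4 of the 9, *CITF1*, *COPT2*, *FRO4* and *FSD1*, both *35S-COLDAIR* libraries were above both Col-0 libraries, which 14.8% of tested genes were. In 3 of the 9, *CSD1*, *CSD2* and *CCS*, both were below, as 14.3% of tested genes were. Since these libraries were known when the genes were chosen, nothing is read from these counts. In the order of all tested genes by log2 difference, *FSD1* was 21 from the highest, *COPT2* 54 and *CITF1* 89, and *CSD2* was 39 from the lowest, *CSD1* 46 and *CCS* 55.

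In the 7 genes whose genotypes did not overlap, the spread between replicates lay mostly in Col-0. The gap between the 2 *35S-COLDAIR* libraries in log2(FPKM + 1) was 0.08 for *FSD1*, 0.10 for *CSD2*, 0.04 for *CSD1*, 0.10 for *CCS* and 0.16 for *CITF1*, against a median of 0.14 over all tested genes. *COPT2* was the exception among these 7, with a gap of 1.06 in *35S-COLDAIR*. In *SPL7* and *COPT1*, whose genotypes overlapped, the gap was also wider in *35S-COLDAIR*, at 0.25 against 0.13 in Col-0 for *SPL7* and at 0.41 against 0.19 in Col-0 for *COPT1*. The gap between the 2 Col-0 libraries was 2.07 for *FSD1*, 0.95 for *CSD2*, 0.89 for *CSD1*, 0.86 for *CCS*, 0.70 for *COPT2* and 0.69 for *CITF1*, against a median of 0.14 over all. By the size of the Col-0 gap *FSD1* ranked 52 of 20142 genes, and *CSD2* ranked 447. In each of the 7 genes, Col-0 replicate 1 was farther from *35S-COLDAIR* than Col-0 replicate 2 was, and over all tested genes without overlap it was the farther in 57.8%.

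The differences therefore depended in size on Col-0 replicate 1. Without it, the log2 difference was 0.61 for *FSD1*, -0.65 for *CSD1*, -0.72 for *CSD2*, -0.52 for *CCS*, 0.74 for *COPT2*, 0.51 for *CITF1* and 0.12 for *FRO4*, in the same direction as with it. Without Col-0 replicate 2, it was 2.68 for *FSD1*, -1.54 for *CSD1*, -1.67 for *CSD2*, -1.38 for *CCS*, 1.44 for *COPT2*, 1.2 for *CITF1* and 0.61 for *FRO4*. Leaving out *35S-COLDAIR* replicate 1 lowered *COPT2* to 0.56, and leaving out *35S-COLDAIR* replicate 2 gave 1.62. In the plot of differences with each library left out, the *FSD1*, *CSD1*, *CSD2* and *CCS* values lie on their own side of 0. Those of *COPT1* and *SPL7* lie on both sides. Where the genotypes did not overlap, leaving out 1 library could not change the direction, so nothing is read from its being kept.

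**Figure D3:**
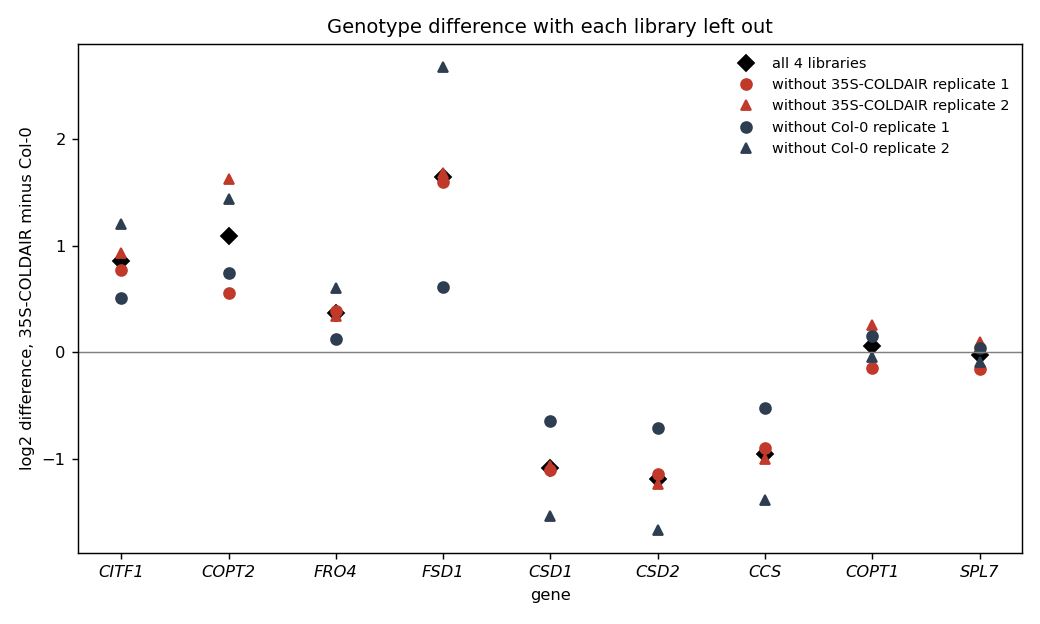
Log2 difference in log2(FPKM + 1), *35S-COLDAIR* minus Col-0, of the 9 tested genes over all 4 libraries (diamonds) and with 1 library left out (red for a *35S-COLDAIR* library, dark blue for a Col-0 library, circles for replicate 1 and triangles for replicate 2). *FSD1* runs from 0.61 without Col-0 replicate 1 to 2.68 without Col-0 replicate 2.

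As a description over the 4 libraries, the genes most like *FSD1*, which had the widest range of log2(FPKM + 1) of the 9, were sought by the distance between log2(FPKM + 1) values centred on each gene's mean. The 5 nearest were AT2G37030, *IQD20* (AT3G51380), AT3G19680, AT2G35290 and AT5G10605, at distances of 0.47 to 0.75. AT3G19680, the most abundant of them, was at 74.5 and 97.6 FPKM in *35S-COLDAIR* and at 16.1 and 92.7 FPKM in Col-0. Among 20142 tested genes, *CITF1* ranked 37 and *COPT2* 46 in likeness to *FSD1*. When the *FSD1* profile was mirrored, a choice made after seeing the values, *CSD2* ranked 7, *CSD1* 9 and *CCS* 12 in likeness to it. With 4 libraries, of which Col-0 replicate 1 sets most of each profile, such ranks describe these libraries only. The members were also chosen with these levels known, so nothing is read from their ranks.

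The other genes of copper handling and superoxide or peroxide removal were taken from lists of 52 genes, of which 42 were tested. In limma, 0 of the 42 passed an adjusted p of 0.05 in either direction. An unadjusted p under 0.05 was reached by 2, 1 higher and 1 lower, beside 2.59% of all tested genes. The *35S-COLDAIR* libraries were both above both Col-0 libraries in 9 of the 42, beside 14.8% of all tested genes. They were both below in 8, beside 14.3% of all tested genes. The median log2 difference of the 42 genes was 0.01, beside 0.00 over all tested genes.

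The highest differences were those of 3 genes of metal transport and delivery. *YSL2* (AT5G24380), of a family that moves metals bound to nicotianamine, was at 13.9 and 7.66 FPKM in *35S-COLDAIR*, and at 2.70 and 6.56 FPKM in Col-0. *ZIP2* (AT5G59520), of the ZIP metal transporters, was at 20.6 and 13.5 FPKM in *35S-COLDAIR*, and at 5.08 and 14.3 FPKM in Col-0. *CCH* (AT3G56240), a cytosolic copper chaperone gene, was at 468 and 410.2 FPKM in *35S-COLDAIR*, and at 247 and 349 FPKM in Col-0. In each of them Col-0 replicate 1 was the lowest library, and the genotypes overlapped for *ZIP2* but not for *YSL2* and *CCH*. The log2 differences were 1.10 for *YSL2*, 0.87 for *ZIP2* and 0.58 for *CCH*. Without Col-0 replicate 1 they were 0.59, 0.21 and 0.33 in the same order. Within replicate 1 they were 2.01, 1.83 and 0.92, and within replicate 2 they were 0.20, -0.08 and 0.23. The adjusted p from limma was 1.0 for each, and between 0.531 and 1.0 over all settings tried.

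The microRNA genes are transcribed into poly-A precursors that are soon cut, and all values of these precursors were low. *MIR398c* (AT5G14565) was at 0.914 and 0.612 FPKM in *35S-COLDAIR*, and at 0.135 and 0.564 FPKM in Col-0. *MIR408* (AT2G47015) was at 0.688 and 0.469 FPKM in *35S-COLDAIR*, and at 0.576 FPKM in Col-0 replicate 2, and was listed at 0 in Col-0 replicate 1. Both had their lowest value in Col-0 replicate 1, and the *MIR408* values overlapped between the genotypes. *CSD1*, *CSD2* and *CCS* were highest in that library, and a link between these values was not tested. *MIR857* (AT4G13554) was at 0.535 FPKM in *35S-COLDAIR* replicate 1 and 0.970 FPKM in Col-0 replicate 2 and listed at 0 in the other libraries. *MIR398a*, *MIR398b*, *MIR397a* and *MIR397b* were listed at 0 in all 4 libraries. *MIR398c* alone passed the filter, with a log2 difference of 0.40 (standard error 0.239, adjusted p = 1.0 from limma). Its log2 difference was 0.75 within replicate 1 and 0.04 within replicate 2. Mature microRNAs are not measured by these libraries.

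The list of other targets of these microRNAs held smaller differences than *CSD1*, *CSD2* and *CCS*. Of its 10 genes 9 were tested, with a median log2 difference of -0.11 and a range from -0.43 to 0.02. In limma 0 passed the threshold and 0 had an unadjusted p under 0.05. In 5 of the 9 both *35S-COLDAIR* libraries were below both Col-0 libraries, beside 14.3% of all tested genes. *COX5b-1*, whose miR398 site had the lowest cost of the 4 shown, was at 62.1 and 60.4 FPKM in *35S-COLDAIR*, and at 69.0 and 69.8 FPKM in Col-0, a log2 difference of -0.18. *ARPN* (AT2G02850), for the blue copper protein plantacyanin, was at 14.0 and 12.9 FPKM in *35S-COLDAIR*, and at 24.2 and 14.1 FPKM in Col-0, so that Col-0 replicate 1 again stood apart. *LAC13* (AT5G07130), a laccase gene, had the highest log2 difference of the list, 0.02, with 2.83 and 2.37 FPKM in *35S-COLDAIR* and 2.0 and 3.21 FPKM in Col-0.

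**Figure D4:**
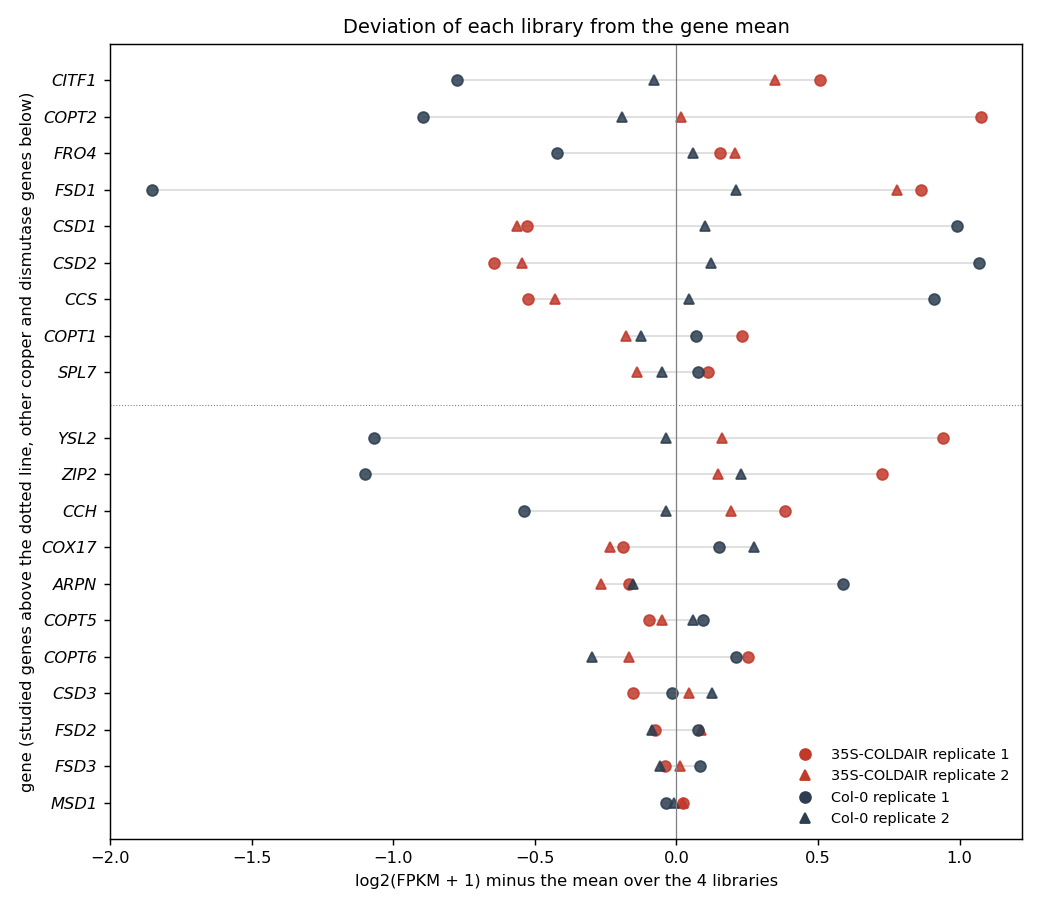
Deviation of log2(FPKM + 1) in each library from the mean over the 4 libraries, for the 9 tested genes (above the dotted line) and 11 other copper and dismutase genes (below it), with red for *35S-COLDAIR*, dark blue for Col-0, circles for replicate 1 and triangles for replicate 2. Col-0 replicate 1 lies at the far left for *CITF1*, *COPT2*, *FRO4*, *FSD1*, *YSL2*, *ZIP2* and *CCH* and at the far right for *CSD1*, *CSD2*, *CCS* and *ARPN*.

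In the remaining lists the genes not yet named held smaller differences. Of the other copper transporters, *COPT5* (AT5G20650), which exports copper from the vacuole, was at 116 and 119.5 FPKM in *35S-COLDAIR* and at 132 and 129 FPKM in Col-0. *COPT6* (AT2G26975), a plasma membrane transporter, was at 40.3 and 29.8 FPKM in *35S-COLDAIR* and at 39.1 and 27.1 FPKM in Col-0. *COPT4* (AT2G37925) was at 0.476 and 2.41 FPKM in *35S-COLDAIR* and at 2.02 and 1.61 FPKM in Col-0, and *COPT3* (AT5G59040) was at or below 0.398 FPKM in all libraries. *COX17* (AT3G15352), which carries copper to cytochrome c oxidase, had the lowest log2 difference among the copper ATPases and chaperones. It was at 8.93 and 8.61 FPKM in *35S-COLDAIR* and 11.6 and 12.7 FPKM in Col-0 (log2 difference -0.42, adjusted p = 1.0 from limma). It was the 1 lower gene of the 42 with an unadjusted p under 0.05 in limma. Its log2 difference was -0.49 without Col-0 replicate 1, and from -0.49 to -0.36 with any 1 library left out. The plastocyanin genes *PETE1* (AT1G76100) and *PETE2* (AT1G20340), the main copper users of the chloroplast, had log2 differences of 0.08 and 0.01. The other *FRO* genes ran from -0.28 for *FRO3* (AT1G23020) to 0.05 for *FRO2* (AT1G01580), and the catalase and ascorbate peroxidase genes from 0.01 for *TAPX* (AT1G77490) to 0.31 for *CAT1* (AT1G20630). *ZIP4* (AT1G10970), of the same family as *ZIP2*, had a log2 difference of -0.05.

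Markers of tissue, time of day and iron supply were read beside these genes, since whole seedlings mix root and shoot. The 12 root genes summed to 1031 and 805 FPKM in *35S-COLDAIR*, and to 1004 and 960.3 FPKM in Col-0. Most of each sum was *PYK10* (AT3G09260), at 942 and 723 FPKM in *35S-COLDAIR* and at 919 and 861 FPKM in Col-0. The log2 differences of the 12 genes ran from -0.53 to 0.23, with a median of 0.01. In 3 of the 12 both *35S-COLDAIR* libraries were below both Col-0 libraries, beside 14.3% of all tested genes. In limma 0 of the 12 passed an adjusted p of 0.05, with 2 at an unadjusted p under 0.05, beside 2.59% of all. The 5 leaf genes summed to 52340 and 49237 FPKM in *35S-COLDAIR* and to 52955 and 47934 FPKM in Col-0. *CAB1* (AT1G29930) alone was at 26115 and 24812 FPKM in *35S-COLDAIR* and at 27398 and 24429 FPKM in Col-0. None of the root or leaf genes was at 0. Of the 9 clock genes, all had values that overlapped between the genotypes. *CCA1* (AT2G46830) was at 44.3 and 23.6 FPKM in *35S-COLDAIR* and at 51.6 and 27.8 FPKM in Col-0, so that replicate 1 was the higher in both. In *PRR5* (AT5G24470) and *PCL1* (AT3G46640) replicate 1 was the lower in both. Within replicates 1 and 2, the log2 differences were -0.22 and -0.23 for *CCA1* and -0.67 and -0.51 for *LHY* (AT1G01060). They were 0.50 and 0.39 for *PRR5* and 0.63 and 0.41 for *PCL1*. With the replicate number as a block, these 4 of the 9 had an unadjusted p under 0.05 in limma, beside 1608 of all 20142 genes. The part of time of day in the copper genes was not tested. The 9 iron deficiency genes had a median log2 difference of -1.10, and summed to 240 and 95.6 FPKM in *35S-COLDAIR* and to 511 and 172 FPKM in Col-0. In 5 of the 9 both *35S-COLDAIR* libraries were below both Col-0 libraries, beside 14.3% of all tested genes. In limma 0 of the 9 passed an adjusted p of 0.05. An unadjusted p under 0.05 was reached by 3, all lower in *35S-COLDAIR*, beside 2.59% of all tested genes. The sum of the 9 genes too was highest in Col-0 replicate 1, and its part in the values of the copper genes was not tested.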

How the data were processed

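FPKM were computed and deposited by the authors in 2 tables of 33854 genes, each with 1 *35S-COLDAIR* and 1 Col-0 library. The study's methods name TopHat, the TAIR10 genome and cuffdiff, whereas the submitters' processing notes name STAR 2.5.2b and Cuffdiff. The annotation, the normalization mode and the strand setting are not given in the sources used here. Columns were assigned to libraries by the genotype and replicate number in the column names, as in the titles of the libraries. The names of the tables themselves carry the opposite replicate number, so that Col-0 replicate 1 here is the column numbered 1 in a table named for replicate 2.

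The difference *35S-COLDAIR* minus Col-0 in log2(FPKM + 1) was fitted with limma 3.58.1 (R 4.3.3; lmFit, and eBayes with a variance trend), across the 20142 genes that averaged 0.5 FPKM or more, with Benjamini-Hochberg adjustment over all of them and a threshold of 0.05. On simulated data with 200 changed genes and independent noise, the fit returned the size of the changes as a median. The share of changes recovered is not given here, so a count of 0 passing does not show that no gene differed. FPKM are not counts, so no count test was run. The members and lists were chosen with earlier results of these data known, and the lists hold genes with textbook roles in copper handling, superoxide and peroxide removal, root, leaf, clock and iron deficiency. Named from the lists are every superoxide dismutase, *COPT* and microRNA gene, genes past the threshold with or without a block, and the highest and lowest difference of each other copper, superoxide and peroxide list at a mean of at least 1 FPKM. Outside this rule *ZIP2*, *COX5b-1*, *CCA1*, *LHY*, *PRR5*, *PCL1*, *PYK10*, *CAB1* and AT1G08840 were named after their values were seen.

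Gene positions and sequences come from the RefSeq annotation of TAIR10.1 through the gene identifiers. As alternatives, the pseudocount was set to 0.1 FPKM, the filter was dropped or set to 1 FPKM, the libraries were centred on their medians or quantile normalized, the variance trend was dropped, the replicate number entered as a block, and each library was left out in turn. A log2 ratio of means without a pseudocount was added after seeing the data.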

Additional observations from a re-analysis of the deposited data

How the results depend on the processing

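The number of genes past the threshold over all 20142 genes was 2, and 7 with the replicate number as a block. Without 1 library it was between 0 and 1, with 356 to 848 genes at an unadjusted p under 0.05. A pseudocount of 0.1 FPKM or no variance trend gave 3, and the other settings gave 2. The genes of the copper and superoxide lists past the threshold were 0 under every setting, the replicate block included, where 10 of the 42 had an unadjusted p under 0.05 in limma, beside 1608 of all 20142 genes. Among the 10 members, 4 had a log2 difference of at least 1 in size, 5 did so with a pseudocount of 0.1 FPKM, and between 0 and 6 without 1 library, the 0 being without Col-0 replicate 1.

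With the replicate block 0 of the 9 tested members passed either, with 6 at an unadjusted p under 0.05 in limma, beside the same 1608 of all 20142 genes. Since these libraries were known when the members were chosen, nothing is read from this count. The log2 differences of the members are the same with and without the block by construction. The libraries share a number and a table, and no label says that a number marks a shared batch. The correlation of same-numbered deviations over all tested genes was 0.37. In the block, *BHLH100* and *IMA2* of the iron deficiency list passed, with adjusted p values of 0.0328 and 0.0335 from limma, and so did *FLC*, with 0.00349.

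The log2 difference kept its sign under every setting for *FSD1*, *CSD1*, *CSD2*, *CCS*, *COPT2*, *CITF1* and *FRO4*. Their genotypes did not overlap, so leaving out 1 library or changing the pseudocount, filter, variance trend or block could not change the sign. Only centring on medians and quantile normalization could have done so. *CITF1* was not tested at a filter of 1 FPKM. *COPT1* ran from -0.15 to 0.26 and *SPL7* from -0.15 to 0.10 when 1 library was left out. As a log2 ratio of mean FPKM, *CITF1* was at 2.08 and *FSD1* at 1.31. With 2 libraries a genotype and an unknown number of fragments, no counting error can be given for low levels such as those of *CITF1* and the microRNA genes.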
